A study of Sus scrofa with 20 samples.

Results

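The gluconeogenesis and glyceroneogenesis enzymes were followed in backfat and liver of Nanchukmacdon pigs by RNA-seq. The set holds 9 genes out of 31907 genes counted, and all 9 were among the 16275 genes with enough counts to be tested. They were chosen by their place in the pathway and not by their level, although earlier results of these data were known. They are PCK1 and PCK2, G6PC1 (annotated as G6PC), FBP1 and FBP2, PC, SLC37A4, LDHA and LDHB. Nanchukmacdon is a Korean breed, and tissue was taken in bulk from 5 boars that the labels describe as WT, 22 months old and of normal disease state, with no treatment. The age given in the methods of the paper differs from that of the labels. Each boar gave a backfat and a liver RNA library, so each tissue had 5 libraries, and a further 10 bisulfite libraries of the same tissues carry no gene positions and were not used for these genes. Libraries are named by tissue and by the number in their column names. It is taken here as the number of the boar, which no label states. The question that this comparison answers is which genes distinguish subcutaneous fat from liver.

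Gluconeogenesis makes glucose from lactate, amino acids and glycerol, and in mammals the liver is its main site. It runs most glycolytic steps backwards but replaces the irreversible ones: pyruvate carboxylase and phosphoenolpyruvate carboxykinase (PEPCK) together turn pyruvate into phosphoenolpyruvate, fructose-1,6-bisphosphatase removes a phosphate from fructose bisphosphate, and glucose-6-phosphatase releases free glucose. Adipose tissue uses only the first of these steps, as glyceroneogenesis, which makes glycerol 3-phosphate for triglyceride synthesis and does not need the later enzymes.

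The libraries held 45157114 to 61772737 counts in backfat (median 48502902) and 43820042 to 53768601 in liver (median 48821039). Levels are given as CPM, counts scaled to a library's total after TMM normalization, which corrects for differences in RNA composition, or as FPKM, which also divides by exon length and is used to compare genes with each other. The 6 adipocyte markers summed to between 12367 and 15051 CPM in backfat and to 8.20 to 11.5 CPM in liver, and the 8 hepatocyte markers to 80437 to 102141 CPM in 4 liver libraries. A pair of libraries stood apart. In liver 67, hepatocyte markers summed to 28447 CPM, the 4 skeletal muscle markers counted summed to 171 CPM against 0.474 to 1.37 CPM in the other livers, and 44.5% of counts were mitochondrial against 6.38% to 20.2%. In backfat 69, hepatocyte markers summed to 574 CPM against 170.6 to 216 CPM in the other backfats, with albumin (ALB) at 36.4 CPM against at most 0.351 CPM. The main results that rest on either library are given with and without it.

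The tissues divided the pathway. Calls needed a Benjamini-Hochberg adjusted p (FDR) no greater than 0.05 together with a change of 2 or more on the log2 scale, taken throughout as backfat minus liver. By this rule 5 of the 9 genes were higher in liver (G6PC1, PCK2, FBP1, SLC37A4 and PCK1), where 11.2% of all tested genes were called. In backfat 3 of the 9 were higher (LDHB, FBP2 and PC), where 11.1% of tested genes were called, and LDHA was not called. With scaling by library size alone, which moved the median of all genes to 0.71, the calls over all genes shifted from 1814 in backfat and 1819 in liver to 2874 and 1340, and those of the 9 genes to 3 and 4. The median log2 fold change of the 9 genes was -2.03, the value of PCK1, against 0.00014 over all tested genes. The 9 values ran from -12.87 (G6PC1) to 4.78 (LDHB), so the median describes no shared shift. The p-values of this fit measure the spread between the libraries of these boars within each tissue. The pairing of tissues by boar was not in the fit.

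**Figure D1:**
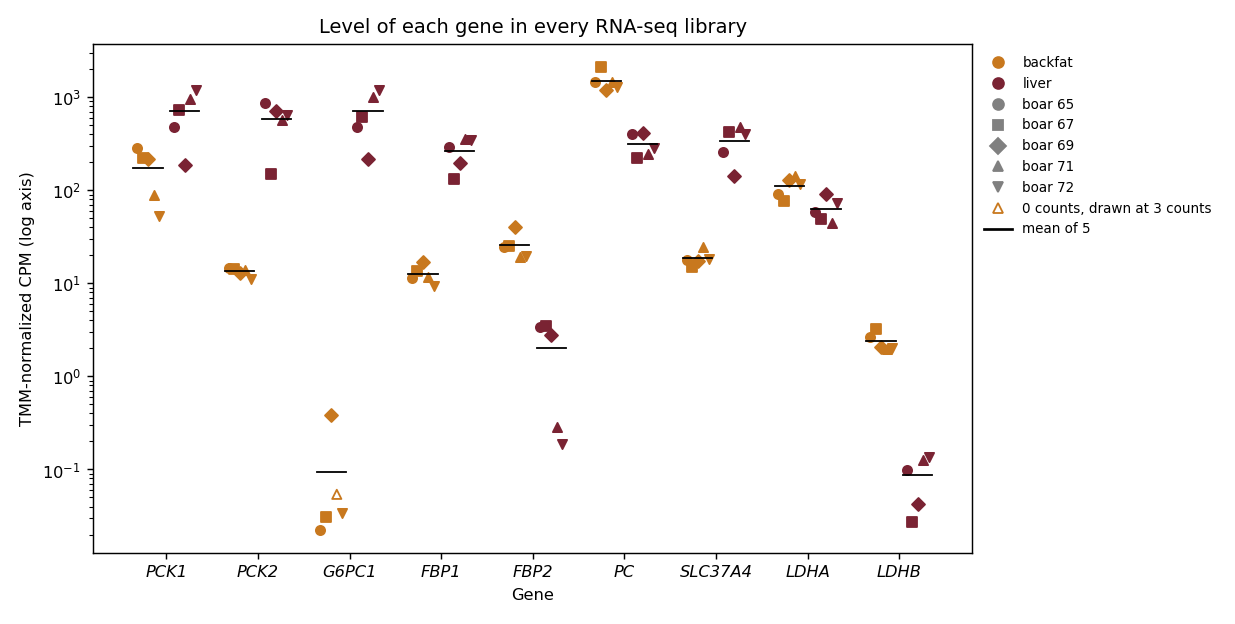
Level of the 9 genes in each library, in TMM-normalized CPM on a log axis, with colour for tissue, symbol shape for boar and a bar for the mean of 5. The tissues separate without overlap for every gene except PCK1 and LDHA, and the widest gap is that of G6PC1. The open symbol stands for a library with 0 counts, drawn at the level of 3 counts.

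**Figure D2:**
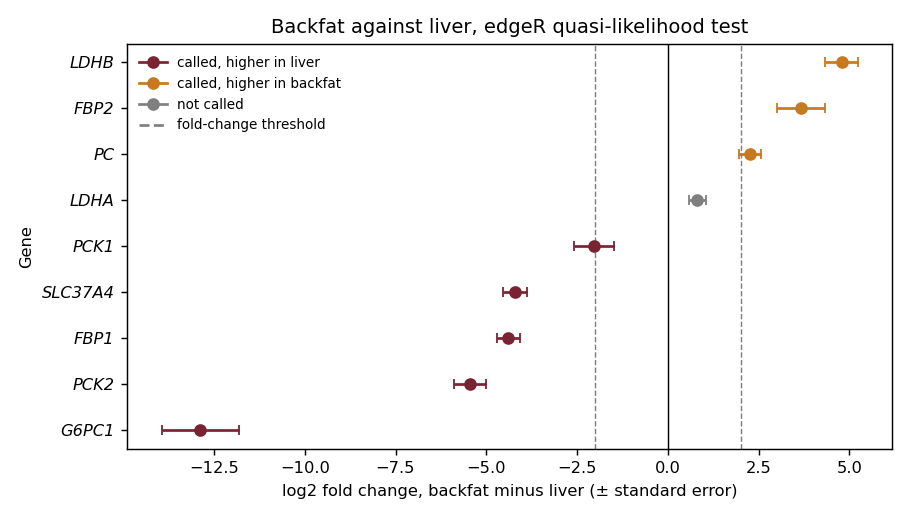
Log2 fold change of each gene, backfat minus liver, with a standard error derived from edgeR's quasi-likelihood test and dashed lines at the threshold of 2. PCK1 and PC lie closest to the threshold, at -2.03 and 2.26, and G6PC1 lies farthest from it, at -12.87.

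Sequence upstream of each gene was read from the RefSeq annotation of Sscrofa11.1, as the 250 bases before the annotated gene start, and searched on both strands for 9 short motifs: the full cAMP response element TGACGTCA and its half-site TGACG, the C/EBP palindrome TTGCGCAA, the forkhead core TGTTTAC, the insulin response core TGTTTTG, the HNF1 half-site GTTAAT, the HNF4 core CAAAGTCCA, the E-box CACGTG and TATAAA. Matches were found for PCK1, G6PC1 and FBP2, whose windows are printed here 5′ to 3′ on the gene's strand with the matches in capitals. The first pair ran together across the liver libraries but shared none of the motifs found. FBP2 was the isoform that went the other way from FBP1. No link between a motif and a level was tested.
PCK1: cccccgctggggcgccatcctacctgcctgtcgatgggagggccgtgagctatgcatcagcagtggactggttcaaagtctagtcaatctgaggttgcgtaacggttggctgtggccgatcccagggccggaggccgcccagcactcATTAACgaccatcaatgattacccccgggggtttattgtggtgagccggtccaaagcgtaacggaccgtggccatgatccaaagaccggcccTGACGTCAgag
G6PC1: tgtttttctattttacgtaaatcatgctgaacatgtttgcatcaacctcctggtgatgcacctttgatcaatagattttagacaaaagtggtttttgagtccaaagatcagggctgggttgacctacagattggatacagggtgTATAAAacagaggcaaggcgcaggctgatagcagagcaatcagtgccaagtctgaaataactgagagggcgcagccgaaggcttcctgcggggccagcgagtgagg
FBP2: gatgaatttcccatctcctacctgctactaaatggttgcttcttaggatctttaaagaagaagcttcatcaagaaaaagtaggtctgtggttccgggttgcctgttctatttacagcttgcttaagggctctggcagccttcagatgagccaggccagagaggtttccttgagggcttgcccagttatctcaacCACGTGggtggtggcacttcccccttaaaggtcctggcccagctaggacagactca
The PCK1 window (chr17:57930257-57930506, plus strand) holds the full cAMP response element beginning 11 bases before the gene start, a motif found in 1.63% of 20664 protein-coding promoters of the same length. The half-site lies inside it on both strands and is found in 19.2% of promoters. An HNF1 half-site on the opposite strand begins 103 bases before the start, and 6.26% of promoters hold this motif. The G6PC1 window (chr12:19975784-19976033, minus strand) holds TATAAA 106 bases before the start, as do 10.4% of promoters. RefSeq begins G6PC1, and also PC, at the first coding base, so for these genes the window lies before the start codon and not before a mapped transcription start. The FBP2 window (chr10:27631583-27631832, plus strand) holds CACGTG 56 bases before the start, as do 6.16% of promoters. These matches describe the letters only, and binding was not measured.

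Pyruvate carboxylase (PC, ENSSSCG00000012926, chr2:5566608-5587797) makes oxaloacetate from pyruvate in mitochondria, the entry step of gluconeogenesis and glyceroneogenesis, and it also feeds citrate to fatty acid synthesis. Its level was 1449, 2108, 1185, 1455 and 1279 CPM in the backfats of boars 65, 67, 69, 71 and 72, and 402, 222, 410, 245 and 282 CPM in their livers. Every backfat library was above every liver library. Of the 9 genes 7 had ranges that did not overlap, as had 42.6% of all tested genes, 22.9% with backfat and 19.7% with liver as the higher tissue. Backfat averaged 1495 ± 361 CPM and liver 312 ± 88.2 CPM (SD, n = 5 each), a log2 fold change of 2.26 (SE 0.30, edgeR quasi-likelihood adjusted p = 3.62e-05). It stayed called when liver 67, its lowest library, was left out, at 2.13. Per length, PC was the most abundant of the 9 genes in backfat, at 423 ± 102 FPKM (SD, n = 5), and ranked 81 of all 16275 tested genes there, within the top 0.498%. In liver it ranked 532. In RefSeq another gene, LRFN4, lies within the span of PC, with 0 bases of exon in common.

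Cytosolic PEPCK (PCK1, ENSSSCG00000007507, chr17:57930507-57936523) turns oxaloacetate into phosphoenolpyruvate and is the regulated step of gluconeogenesis in liver and of glyceroneogenesis in fat. Its level was 282, 223, 218, 90.1 and 52.9 CPM in the backfats of boars 65, 67, 69, 71 and 72, and 480, 733, 185, 968 and 1183 CPM in their livers. The ranges overlapped, because liver 69 lay below 3 of the 5 backfat libraries, and liver was the higher tissue in 4 of 5 boars. Backfat averaged 173 ± 97.2 CPM and liver 710 ± 393 CPM (SD, n = 5 each), a log2 fold change of -2.03 (SE 0.54, edgeR quasi-likelihood adjusted p = 0.00638). The call sat at the fold threshold. It was lost when backfat 71 (-1.86), backfat 72 (-1.80), liver 71 (-1.93) or liver 72 (-1.82) was left out, without the filter on low counts (-1.97), and with scaling by library size alone (-1.21, edgeR quasi-likelihood adjusted p = 0.0518). PCK1 was also among the most variable of these genes within a tissue, with the highest library 5.33 times the lowest in backfat and 6.38 times in liver.

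The mitochondrial form, PCK2 (ENSSSCG00000002009, chr7:75187195-75197613), carries out the same reaction inside mitochondria. It stood at 14.70, 14.40, 12.95, 14.04 and 11.01 CPM in the backfats of boars 65, 67, 69, 71 and 72, and at 859, 150, 714, 571 and 640 CPM in their livers. The tissues did not overlap, and liver 67 was the lowest liver library. Backfat averaged 13.42 ± 1.499 CPM and liver 587 ± 266 CPM (SD, n = 5 each), a log2 fold change of -5.45 (SE 0.43, edgeR quasi-likelihood adjusted p = 4.61e-07). Without liver 67 it was -5.73. In this bulk tissue, fewer cells of a type and less RNA per cell cannot be told apart, for PCK2 or for any gene here.

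The PEPCK forms differed in make-up between the tissues as well as in level. The PCK1 share of PCK1 and PCK2 together, per exon length, was 91.4%, 89.5%, 90.3%, 77.9% and 72.6% in the backfats of boars 65, 67, 69, 71 and 72, and 23.6%, 72.9%, 12.5%, 48.3% and 50.5% in their livers. PCK1 was thus the major form in every backfat library, while liver ranged from mostly PCK2 to mostly PCK1. Liver 67, with the least PCK2, was the only liver library to reach the backfat range. The share averaged 84.3% ± 8.52 in backfat and 41.5% ± 23.8 in liver (SD, n = 5 each), and differed by 42.8 percentage points (two-sided exact permutation test over libraries, p = 0.0159, and 0.0159 after Benjamini-Hochberg adjustment over 3 shares). The share was the higher in backfat for all 5 boars. An exact sign-flip test on the 5 boar pairs returned p = 0.0625, its lowest possible value. Without liver 67 the difference was 50.6 points. The summed level of both forms was 45.5 ± 22.8 FPKM in backfat and 408 ± 122 FPKM in liver (SD, n = 5 each).

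**Figure D3:**
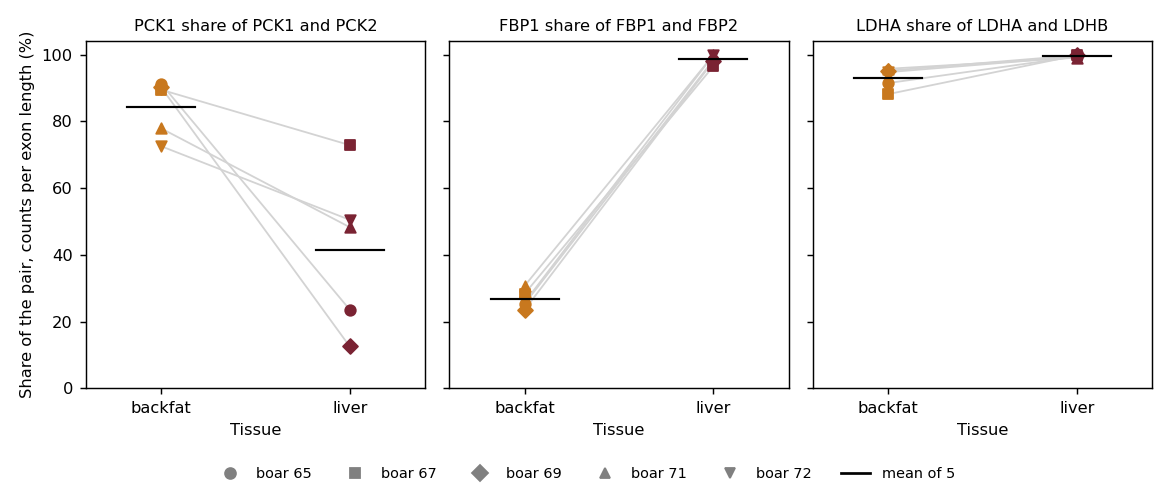
Share of the first-named isoform in each pair of genes, in percent of counts per exon length, with a symbol for each boar, grey lines joining the tissues of a boar and a bar for the mean of 5. PCK1 falls from 84.3% in backfat to 41.5% in liver, FBP1 rises from 26.7% to 98.6%, and LDHA is above 88% in all 10 libraries.

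Fructose-1,6-bisphosphatase is encoded by FBP1, the liver and kidney form, and FBP2, the form best known from muscle, which lie close together on chromosome 10. FBP1 (ENSSSCG00000031174, chr10:27588609-27622225) stood at 11.3, 13.5, 16.9, 11.7 and 9.40 CPM in the backfats of boars 65, 67, 69, 71 and 72, and at 290, 132, 195, 352 and 351 CPM in their livers. The tissues did not overlap, and liver 67 was again the lowest liver library. The log2 fold change was -4.39 (SE 0.32, edgeR quasi-likelihood adjusted p = 2.09e-07), and it was -4.61 without liver 67.

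FBP2 (ENSSSCG00000010947, chr10:27631833-27661704) moved in the opposite direction. It stood at 24.4, 25.1, 40.3, 19.3 and 19.9 CPM in the backfats of boars 65, 67, 69, 71 and 72, and at 3.39, 3.48, 2.76, 0.284 and 0.190 CPM in their livers. The tissues did not overlap, backfat 69 was the highest library, and the livers of boars 71 and 72, with 9 and 7 counts, lay far below the other 3, with 129 to 136 counts. The log2 fold change was 3.66 (SE 0.66, edgeR quasi-likelihood adjusted p = 0.000479), and it was 3.45 without backfat 69 and 3.90 without liver 67. Skeletal muscle markers summed to 171 CPM in liver 67 and to at most 1.37 CPM in the other livers. In backfat they ranged from 11.3 to 410 CPM with the highest sum in backfat 65, and their part in the FBP2 level of either tissue was not tested.

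The FBP1 share of FBP1 and FBP2, per exon length, was 26.7% ± 2.81 (SD, n = 5) in backfat, between 23.5% and 30.7%, and 98.6% ± 1.41 (SD, n = 5) in liver, between 96.5% and 99.9%. The difference was -71.9 percentage points (two-sided exact permutation test over libraries, p = 0.00794, the smallest that 5 against 5 allows, and 0.0119 after adjustment over 3 shares). The sign-flip test on boar pairs (exact) returned p = 0.0625. The muscle form was therefore the larger part of fructose-1,6-bisphosphatase transcript in every backfat library, at a summed level of 22.5 FPKM against 126 FPKM in liver.

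The last step, release of glucose from glucose 6-phosphate in the endoplasmic reticulum, needs the catalytic subunit G6PC1 and the transporter SLC37A4. G6PC1 (ENSSSCG00000036449, chr12:19965885-19975783) had 2, 2, 23, 0 and 2 counts in the backfats of boars 65, 67, 69, 71 and 72, or 0.0226, 0.0305, 0.387, 0 and 0.0343 CPM. In their livers it stood at 477, 619, 219, 1005 and 1209 CPM. Backfat was thus at or near 0, where a count of 0 in backfat 71 allows up to 0.0541 CPM (3 counts, counting error only), and 23 of the 29 backfat counts were in backfat 69. That library also held the most ALB and other hepatocyte transcripts of the backfats, and their part in its G6PC1 count was not tested. The log2 fold change was -12.87 (SE 1.06, edgeR quasi-likelihood adjusted p = 6.25e-07), and it was -14.79 without backfat 69.

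SLC37A4 (ENSSSCG00000015105, chr9:46247278-46254068), which brings glucose 6-phosphate to that enzyme, was present in backfat. It stood at 18.0, 15.1, 17.2, 24.4 and 18.0 CPM in the backfats of boars 65, 67, 69, 71 and 72, and at 261, 428, 141, 479 and 401 CPM in their livers. The tissues did not overlap, and backfat 69 did not stand out. The log2 fold change was -4.20 (SE 0.34, edgeR quasi-likelihood adjusted p = 5.11e-07). In liver the ratio of G6PC1 to SLC37A4 in FPKM was 1.06 to 2.22, with a median of 1.34, while in backfat it was 0.0165 in backfat 69 and at most 0.00149 in the other 4.

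Lactate dehydrogenase joins lactate, a main gluconeogenic substrate, to pyruvate. LDHA (ENSSSCG00000013366, chr2:40814163-40827284) encodes the subunit that predominates in muscle. It stood at 92.2, 77.0, 129, 142 and 116 CPM in the backfats of boars 65, 67, 69, 71 and 72, and at 58.7, 49.7, 90.5, 45.0 and 72.9 CPM in their livers. The ranges overlapped at liver 69 but backfat was the higher tissue in 5 of 5 boars. The log2 fold change was 0.81 (SE 0.23, edgeR quasi-likelihood adjusted p = 0.0100), which passed the FDR, as did 55% of tested genes, and not the fold threshold.

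LDHB (ENSSSCG00000032557), the subunit that predominates in heart, was low in both tissues. It had 238, 212, 122, 109 and 117 counts in the backfats of boars 65, 67, 69, 71 and 72 (1.96 to 3.23 CPM), and 4, 1, 2, 4 and 5 counts in their livers (0.0270 to 0.136 CPM). The tissues did not overlap, and the log2 fold change was 4.78 (SE 0.45, edgeR quasi-likelihood adjusted p = 1.86e-06). Its level is uncertain. RefSeq has an LDHB gene on chromosome 5 (chr5:51810932-51831218, 8 exons) and another with a single exon on chromosome 2 (chr2:12988754-12990033), and 1282 bases (93.6%) of the chromosome 5 transcript match the latter at 99.1% identity. Reads that map to more than 1 place are not counted under the settings in the deposited table's header, and the count table does not say which locus carries this identifier. For the other 8 genes no such copy was found beyond 56 bases of SLC37A4. The LDHA share of LDHA and LDHB, per exon length, carries the same doubt. It averaged 93.1% ± 3.20 in backfat and 99.5% ± 0.310 in liver (SD, n = 5 each), a difference of -6.45 percentage points (two-sided exact permutation test over libraries, p = 0.00794, adjusted over 3 shares 0.0119). From raw counts, without division by length, the difference was -2.15 points, and the sign-flip test on boar pairs (exact) returned p = 0.0625.

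The order of the enzymes per exon length differed between the tissues. In backfat it ran from PC (423 FPKM) through PCK1 (39.9 ± 22.4 FPKM, SD, n = 5), LDHA (25.7), FBP2 (16.6), SLC37A4 (6.46), FBP1 (5.92), PCK2 (5.60) and LDHB (1.76) to G6PC1 (0.0242). PC was above PCK1 in 5 of 5 backfat libraries, by 6.32 to 29.8 times with a median of 11.6. PCK1 and LDHA could not be ordered (PCK1 was higher in 3 of 5 libraries), nor could SLC37A4, FBP1 and PCK2.

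In liver the order began with PCK2 (245 ± 111 FPKM, SD, n = 5), G6PC1 (180 ± 102), PCK1 (163 ± 90.5), FBP1 (124 ± 46.0), SLC37A4 (119 ± 48.2) and PC (88.4 ± 25.0). These 6 lay within the spread of their neighbours, since no neighbouring pair kept its order in all 5 libraries. LDHA (14.6), FBP2 (1.30) and LDHB (0.0634) followed, each below the gene before it in 5 of 5 libraries. The ratio of PC to PCK1 was 0.293 to 2.72 in liver, with a median of 0.373, so PC was the more abundant of the pair in every backfat library while both orders were seen in liver.

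Across the liver libraries the genes of the pathway did not vary as a block. PCK1 and G6PC1 kept nearly constant proportion, with a ratio in FPKM of 0.762 to 1.06, although each varied more than 5-fold. Both were lowest in liver 69 and highest in liver 72, with log2 deviations from the liver mean of -1.68 and 0.99 for PCK1 and -1.46 and 1.01 for G6PC1. SLC37A4 was also lowest in liver 69 (-1.15). PCK2, FBP1 and PC were instead lowest in liver 67, at -1.76, -0.90 and -0.45, the library with few hepatocyte transcripts and many mitochondrial ones. The livers thus differed in which enzymes were low, and with 5 libraries no correlation was computed.

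In backfat PCK1 varied most of the genes that were counted in all libraries, from a log2 deviation of 0.95 in backfat 65 to -1.46 in backfat 72. PCK2 and PC stayed within -0.28 to 0.14 and -0.31 to 0.53. Backfats 71 and 72, low in PCK1, came from the boars whose livers were highest in it. Boar 69 was the only boar with less PCK1 in liver than in backfat. These contrasts take libraries of the same number as from the same boar, which no label states. The libraries numbered 69 had the lowest correlation of their deviations across genes (r = 0.0359).

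**Figure D4:**
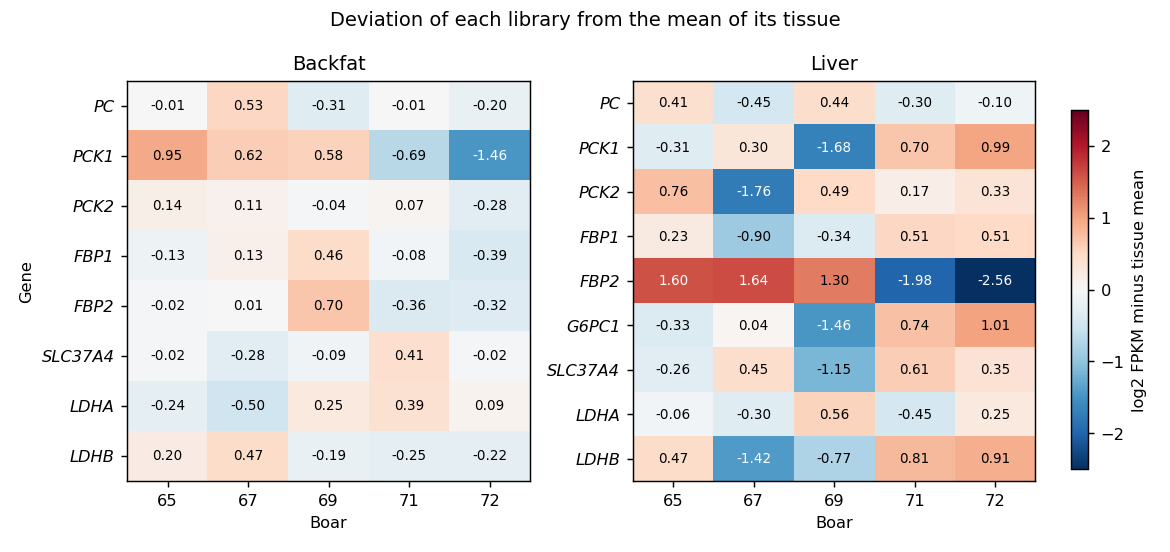
Log2 deviation of each gene in each library from the mean of its tissue, in FPKM, with boars as columns and red for above the mean. G6PC1 is not drawn for backfat, where it was at or near 0. PCK1 and G6PC1 share their low in liver 69 (-1.68 and -1.46), and FBP2 is low in livers 71 and 72 (-1.98 and -2.56).

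The wider pathway was described from 65 further genes in 6 lists, of which 61 were counted and 59 tested. Backfat had 11 calls and liver 11 (14 and 9 with scaling by library size alone), and together 22 of 59 were called where 22.3% of all tested genes were. The median log2 fold change of the 59 was 0.45, against 0.00014 for all tested genes. Of the 22 calls, 16 held in every alternative fit that tested the gene. The other 6, named here because they were lost, were PKM, PFKFB1, PFKFB3, PFKFB4, PDK4 and PPARA. PKM lost its call without backfat 71, and PFKFB1 with scaling by library size alone. PFKFB3 lost it without backfat 67, liver 67, liver 71 or liver 72. PFKFB4 lost it without backfat 65, backfat 71, liver 69 or liver 72, with DESeq2 size factors, and with the mitochondrial genes removed. PPARA lost it without backfat 69, backfat 72, liver 65 or liver 69, with library size alone, and with the boar as a block (-1.89). PDK4 lost it in 7 of the 10 fits that left out a single library, all but those without backfat 69, 71 or 72. It also lost it with the boar as a block (1.29, edgeR quasi-likelihood adjusted p = 0.112). The PDK4 level in backfat 67 was 2036 CPM, against 73.0 to 613 CPM in the other backfats.

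The opposing glycolytic steps, which consume glucose where gluconeogenesis makes it, split by isoform. Of 13 genes tested, 6 were called higher in backfat and 3 higher in liver, where 11.1% and 11.2% of all tested genes were. Hexokinase 2 (HK2), the insulin-responsive hexokinase of muscle and fat, stood at 19.99 to 106 CPM in backfat and at 0 to 0.783 CPM in liver, a log2 fold change of 7.41 (SE 0.69), and the platelet-type phosphofructokinase PFKP stood at 2.18 (SE 0.14). Pyruvate kinase of liver and red cells, PKLR, stood at -6.78 (SE 0.65).

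The reversible steps, which glycolysis and gluconeogenesis share, gave 1 call in each direction among 11 genes tested. Over all tested genes 11.1% were called higher in backfat and 11.2% in liver. The call in backfat was the aldolase ALDOC, which reached only 0.942 to 4.76 CPM there and changed by 4.20 on the log2 scale (SE 0.66). The identifiers that carry GAPDH and ALDOA, singled out here after their values were seen, had means of at most 0.478 CPM in either tissue, although every cell uses these enzymes, so their values are not read as expression.

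Among genes of precursor supply and carriers, 3 of 18 tested were called higher in backfat and 2 higher in liver. The shares over all tested genes were 11.1% and 11.2%. Cytosolic malate dehydrogenase (MDH1), which interconverts malate and oxaloacetate outside mitochondria, was at 280.0 to 723 CPM in backfat and 33.8 to 80.5 CPM in liver, a log2 fold change of 2.94 (SE 0.33). The monocarboxylate transporter SLC16A7 stood at 2.66 (SE 0.21). The alanine aminotransferase GPT2, which supplies pyruvate from alanine, was at 66.8 to 135 CPM in liver and 0.936 to 2.52 CPM in backfat, a log2 fold change of -6.03 (SE 0.35), and the aspartate/glutamate carrier SLC25A13 stood at -2.76 (SE 0.33).

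The glycerol 3-phosphate list, where the product of glyceroneogenesis is made, had 0 of 3 tested genes called by edgeR's quasi-likelihood test and 0 by DESeq2, while 3 of the 3 had an unadjusted edgeR p below 0.05, as did 60.1% of all tested genes. They went both ways. GPD1, GPD1L and GPD2, glycerol-3-phosphate dehydrogenases or their relatives named after their values were seen, stood at 0.67 (SE 0.30), -1.11 (SE 0.26) and 1.80 (SE 0.25), and the last pair passed the FDR. G6PC3, the only other glucose-6-phosphatase tested, was not called (0.63, SE 0.35), and G6PC2 had 0 counts in all libraries.

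Of 13 regulators tested, 5 were called higher in liver and 1 in backfat, where 11.2% and 11.1% of all tested genes were. The glucagon receptor (GCGR), through which glucagon raises gluconeogenesis, was at 1079 to 2225 CPM in liver and at most 1.09 CPM in backfat, a log2 fold change of -11.48 (SE 0.56). NR0B2 (-10.10, SE 0.58), a nuclear receptor that represses gluconeogenic genes, and HNF4A (-9.52, SE 0.57), a hepatocyte transcription factor that activates them, were also higher in liver. PPARG, the adipocyte nuclear receptor, was at 118 to 202 CPM in backfat and 0.191 to 1.67 CPM in liver, a log2 fold change of 7.78 (SE 0.52).

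**Figure D5:**
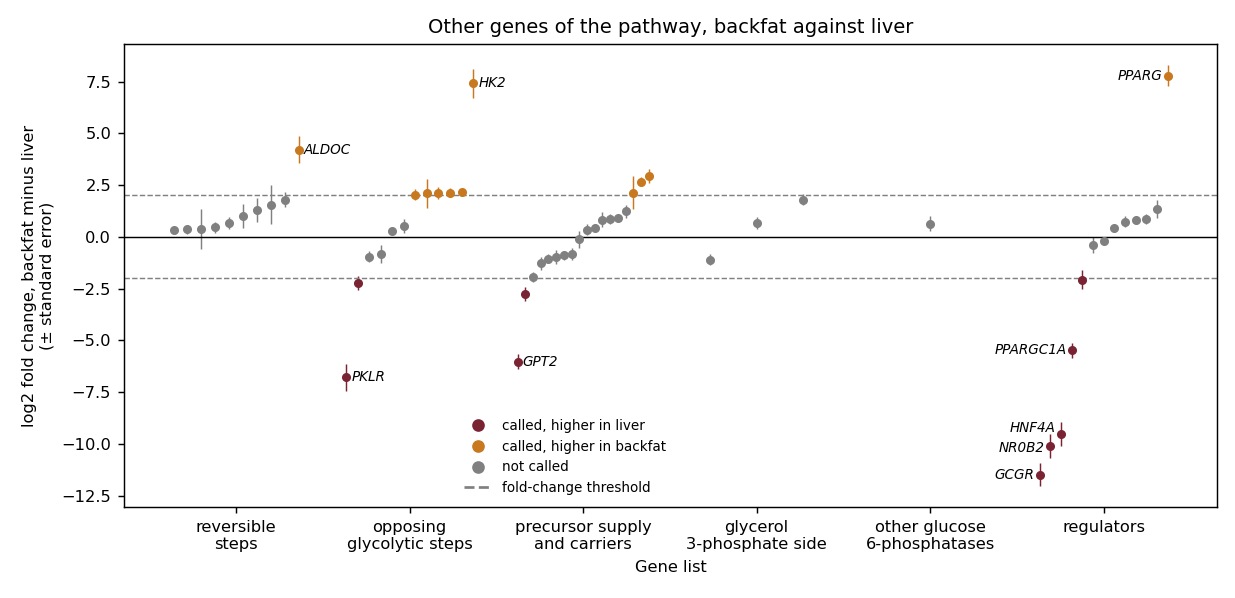
Log2 fold change, backfat minus liver, with standard error for 57 of the 59 tested genes of the 6 pathway lists, coloured by call, with dashed lines at the threshold of 2 and names for changes beyond 4. The regulators hold 5 calls in liver and 1 in backfat, and the opposing glycolytic steps 6 in backfat and 3 in liver, not all of them drawn.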

How the data were processed

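RNA-seq reads of 5 backfat and 5 liver samples were, per the paper's methods and the table header, trimmed by the authors with Trimmomatic, mapped to Sscrofa11.1 with HISAT2 and counted per gene by featureCounts 2.0.1 with Ensembl release 99, as paired-end fragments without strand. The deposited values are raw counts. All 10 columns were mapped to a tissue (0 were left unmapped), and boar numbers come from the column names, because the replicate numbers of the labels could not be tied to columns. The bisulfite call files were not used. They hold counts of calls without positions.

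Genes were filtered by filterByExpr, TMM-normalized and tested with tissue as the only term by edgeR 4.0.16 (glmQLFit and glmQLFTest, R 4.3.3), with adjustment over 16275 genes. The standard errors (SE) were derived as the size of the log2 fold change divided by the square root of the test's F statistic. FPKM used the exon lengths of the table. Shares were compared by exact permutation tests (scipy 1.17.1), and near copies were sought with BLAST 2.17.0. The fits were tested on simulated data. Symbols and loci were matched by identifier and symbol to RefSeq. Backfat and liver columns of the same number were taken to come from the same boar, since the paper samples 5 boars for both tissues, although no label ties the numbers to boars. Their deviations from the tissue means correlated across genes with r = 0.226, 0.0945, 0.0359, 0.173 and 0.121 for boars 65, 67, 69, 71 and 72, and 3 of the 5 backfat libraries correlated best with the liver of their own number. The alternatives were DESeq2 1.42.0 as test or scaling, library size alone, other filters, the boar as a block, removal of the mitochondrial genes and leaving out libraries. All 9 genes are named, with up to 4 called genes of the largest change per pathway list and the 3 genes most like each of the 9. Some genes that this rule names are left out. The 9 genes, the lists and the tests were chosen with earlier results of these data known.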

Additional observations from a re-analysis of the deposited data

Results flagged for a closer look

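Both results set apart were in backfat 69, among 24 sets of 5 libraries examined (levels of the 9 genes and the shares), of which chance alone would set apart about 5%. The measure was the gap of the highest or lowest library to its neighbour as a fraction of the whole range, which Dixon's test sets against 0.71. G6PC1 in backfat 69 was 0.387 CPM against 0.0343 CPM in the nearest backfat library, a gap of 0.911 of the range. FBP2 in backfat 69 was 40.3 CPM against 25.1 CPM in the nearest, a gap of 0.725 of the range. Hepatocyte transcripts were also highest in backfat 69, and their part in the G6PC1 value was not tested. FBP2 stood at 0.190 to 3.48 CPM in the liver libraries, and the part of hepatocyte transcripts in its backfat 69 value was not tested. The 2 endothelial markers counted also had their highest sum in backfat 69, at 906 CPM against 499 to 811 CPM in the other backfats. PECAM1 was highest there (714 CPM), while CDH5 (192 CPM) was higher in backfat 65 (223 CPM) and backfat 67 (207 CPM). The part of endothelial transcripts in the FBP2 value was not tested.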

How the results depend on the processing

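No result changed direction. Members called higher in liver numbered 4 or 5 under every alternative, the change being PCK1 throughout except that G6PC1 was not tested with at least 10 counts in every library. Under that filter 1 member was called higher in backfat and not 3, since FBP2 and LDHB were not tested, and 15 pathway genes were called and not 22, 7 of them in liver against 11. Over all genes that filter left 13026 tested, with 871 called higher in backfat and 981 in liver. At the FDR alone 39 of 59 pathway genes passed, where 55% of all tested genes did. Leaving out each library gave 4 to 5 members in liver, 3 in backfat and 19 to 23 pathway genes, and shares that differed by 35.5 to 50.6 points for PCK1, -72.9 to -71.1 for FBP1 and -7.12 to -5.22 for LDHA. Paired by boar in the replicate block, the share differences were the same (42.8, -71.9 and -6.45 points), but p = 0.0625 by the exact sign-flip test is the smallest that 5 pairs allow. The block in the edgeR fit changed no call of the 9 genes, 5 higher in liver and 3 in backfat, and left 20 pathway genes called. Over all 16275 genes tested it called 1913 higher in backfat and 1757 in liver. PCK1 kept its call there only narrowly, at -2.002 (edgeR quasi-likelihood adjusted p = 0.0387). LDHB in liver rests on 16 counts in all and G6PC1 in backfat on 29, so depth limits both levels. Bulk tissue, 5 boars and the lack of an independent cohort limit the rest.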

Other observations

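The genes whose pattern over the 10 libraries lay nearest to each enzyme were listed by the root mean square difference of log2(CPM + 0.5) after centring each gene, among genes with at least 10 counts in every library. G6PC1 in backfat and LDHB in liver lay below the 0.5 CPM added, which then sets their pattern there, so their nearest genes are not given. PCK2 lay nearest to FMO5 (0.31), ATP2B2 (0.33) and SLC27A2 (0.34). FBP1 lay nearest to FAM83G (0.26), BAIAP2L1 (0.28) and CD14 (0.29), and SLC37A4 to USP2 (0.26) and SMIM5 (0.32). All of these were higher in liver. In backfat FAM83G averaged 0.318 CPM and SMIM5 0.554 CPM, below or near the 0.5 CPM added, so that addition enters their distances. The nearest genes to PCK1 were SMIM1 (0.58), ZBTB45 (0.67) and TP53INP1 (0.68), also higher in liver, and SMIM1 was farther from PCK1 than the nearest gene was from any of the other 6 enzymes given here.

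Among the enzymes higher in backfat, PC lay nearest to GPR180 (0.18), UTRN (0.21) and SUCLA2 (0.23), a subunit of the citric acid cycle enzyme succinyl-CoA synthetase. FBP2, also below 0.5 CPM in livers 71 and 72, lay nearest to ADAMTS9 (0.46), MYCT1 (0.49) and CAVIN2 (0.57). LDHA lay nearest to MLF2 (0.16), BPNT1 (0.19) and UXS1 (0.19). The measure mostly reflects the tissue difference that the libraries share, and no test was made.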
